A study of Canis lupus familiaris with 36 samples.

Results

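CXCL2 and IL8 were the 2 neutrophil-attracting chemokines among the 44 immune genes of a custom canine panel, and both were taken by their names on that panel. Tumor RNA came from 34 samples of canine oral squamous cell carcinoma (OSCC), a spontaneous cancer of the mouth lining of pet dogs, and the comparison tissue was 2 samples labelled mucosal stroma from normal oral mucosa. The 36 samples came from 33 dogs, one of which gave both kinds of tissue. The tissue was archived, and the series text describes it as formalin-fixed while the methods name frozen tissue as well, without saying which sample was which. No treatment is given in the labels for any sample, and samples are named here by the patient numbers of the labels.

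CXCL2 and IL8 (also called CXCL8) are small secreted proteins of the CXC family. Epithelial cells, macrophages, fibroblasts and vessel walls make them on contact with inflammatory cytokines or microbial products, and neutrophils follow them into tissue through the receptors CXCR1 and CXCR2. In many carcinomas the tumor cells themselves secrete such chemokines. The panel had no gene that defines neutrophils or squamous epithelium, so neither the cells these chemokines attract nor the labelled tumor tissue could be checked against defining markers. In bulk RNA of this kind, fewer cells of a type and less RNA per cell cannot be told apart. No probe sequences were used here, and whether the CXCL2 probe also counted closely related CXC chemokines was not tested.

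The nCounter assay counts color-coded probes bound to transcripts without amplification. Total counts over the panel ranged from 27092 to 665587 in the tumors (median 224716) and were 117883 and 149876 in the mucosa samples. Values are log2 of housekeeping-normalized counts with no pseudocount, so a difference of 1 is a doubling, and levels are compared between samples and never between genes because probes differ in efficiency. The ratio of a pair of positive controls divided the samples into a first batch, with 7 tumors and both mucosa samples, and the other 27 tumors. This batch is a property of the control counts and is not named in the labels.

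CXCL2 varied over a wide range among the tumors. Its log2 level was 8.98 in the lowest tumor, 13.32 at the median and 16.09 in the highest, with a mean of 12.96 ± 1.97 (SD, n = 34). The span from the lowest to the highest tumor was 138-fold. The mucosa samples had CXCL2 levels of 7.64 (165 counts, patient 8) and 8.30 (293 counts, patient 9). Every tumor therefore lay above both mucosa samples, which was so for 13.6% of the immune genes. The highest CXCL2 levels were in the tumors of patients 22 (16.09) and 10 (15.84), and the lowest in those of patients 21 (8.98), 25 (9.33) and 15 (9.40).

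IL8 spanned 301-fold among the tumors. Its log2 level was 10.37 in the lowest tumor, 14.56 at the median and 18.60 in the highest, with a mean of 14.27 ± 2.09 (SD, n = 34). The mucosa samples were far apart in IL8, at 7.30 (131 counts, patient 8) and 12.90 (7109 counts, patient 9). IL8 was higher than in either mucosa sample in 24 tumors and between the mucosa values in the other 10, so the groups overlapped. The highest IL8 levels were in the tumors of patients 6 (18.60), 20 (17.37) and 4 (17.18), and the lowest in those of patients 15 (10.37) and 13 (10.85).

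IL8 and CXCL2 had the largest and second largest SD over the tumors of all 44 immune genes. The next were the T cell gene CD8a (SD 1.74) and the cytokine gene IL6 (SD 1.60). Both chemokines were above the negative-control background, the mean plus 2 SD of the negative-control probes, in 36 of 36 samples. In the tumor closest to background, that of patient 21, CXCL2 had 71 counts, 8.76-fold the background. This tumor, the lowest in CXCL2, was 1 of 2 with under 50000 counts in total.

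**Figure D1:**
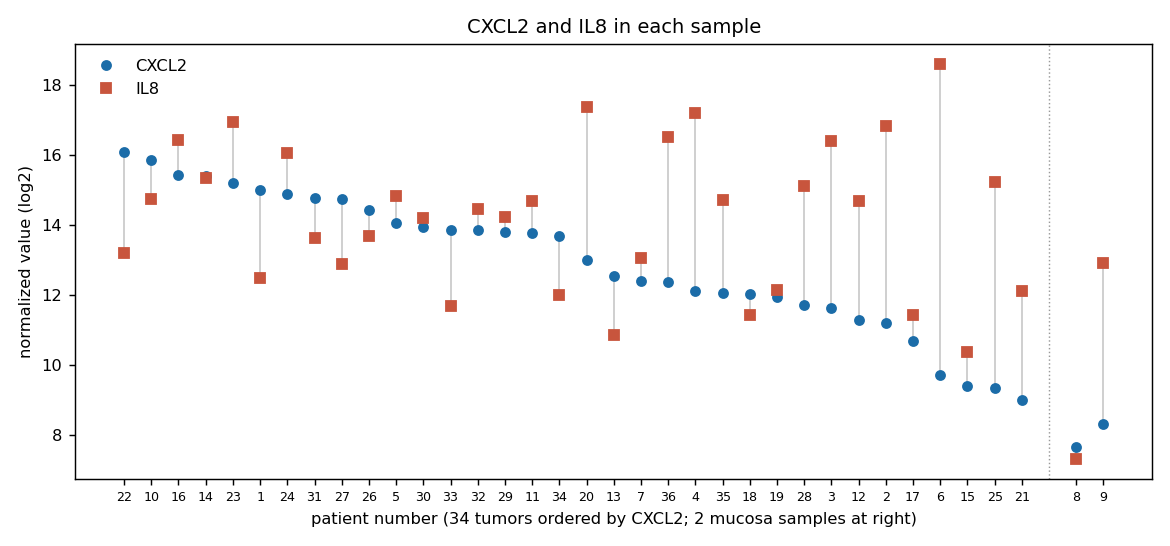
Log2 normalized values of CXCL2 (circles) and IL8 (squares) in each sample, with the 34 tumors ordered from high to low CXCL2 and the 2 mucosa samples at the right; grey lines join the values of 1 sample. CXCL2 of every tumor is above 8.30, the higher mucosa value, while IL8 follows no such order and is highest (18.60) in patient 6, one of the tumors lowest in CXCL2.

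These chemokines took up much of the signal of the panel in some tumors. CXCL2 made up 0.135% to 26.7% of a tumor's counts (median 4.64%), and IL8 0.725% to 64.8% (median 11.0%). In patient 6, IL8 alone was 64.8% of the counts, and in 12 of 34 tumors the chemokines together exceeded 30%. In mucosa, CXCL2 was 0.140% and 0.195% of the counts, and IL8 0.111% and 4.74%. The scaling factors were set by the housekeeping genes and not by the chemokine counts.

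The comparison of tumors with mucosa asks which immune genes differ from normal oral tissue. CXCL2 had the largest difference of the 44 immune genes and IL8 the second largest. The mean log2 level of CXCL2 was 5.00 higher in tumors (standard error 1.33, limma adjusted p = 0.00478), and that of IL8 was 4.17 higher (standard error 1.48, limma adjusted p = 0.0232). Of the immune genes, 34.1% were called in either direction and 31.8% as higher in tumors. The median over all immune genes was itself 1.21 higher in tumors, and relative to it CXCL2 was 3.79 higher (limma adjusted p = 0.0258) and IL8 2.96 higher (limma adjusted p = 0.173).

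Within the first batch, where both tissues were measured, the 7 tumors had CXCL2 levels from 9.70 to 14.99 with a median of 12.10, all above the mucosa samples. The difference there was 4.32, at the smallest p that 7 against 2 samples allow (two-sided exact permutation test, 36 splits, p = 0.0278). IL8 in the same tumors ran from 12.48 to 18.60 with a median of 16.40, and the range included the higher mucosa value of 12.90. Its difference in the first batch was 5.52 (two-sided exact permutation p = 0.0556). Without the mucosa of patient 8 the CXCL2 difference was 4.66 and no longer called (limma adjusted p = 0.0616), and without that of patient 9 it was 5.33 and still called (limma adjusted p = 0.0431). IL8 rested on the mucosa of patient 8 to a larger extent, with a difference of 1.37 without it (limma adjusted p = 0.677) and 6.97 without that of patient 9 (limma adjusted p = 0.0239).

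Whether tumors differed from mucosa more in one chemokine than in the other was tested on the log2 value of CXCL2 minus that of IL8, called the CXCL2 to IL8 ratio here. The ratio is read between samples alone, since its absolute value depends on the probes. It ran from -8.91 in the tumor of patient 6 through a median of -0.76 to 2.91 in that of patient 22, and was 0.33 and -4.60 in the mucosa samples. The tumors covered the whole range of the mucosa, with 10 above both samples, 19 between them and 5 below both. The mean difference of 0.83 was within this spread (two-sided exact permutation test, 630 splits, p = 0.702), and it was -1.19 in the first batch (exact permutation test, two-sided, p = 0.667). The 2 mucosa samples limit this test, since the difference turned from 3.29 without the mucosa of patient 8 to -1.64 without that of patient 9.

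Across the tumors, no relation between CXCL2 and IL8 was detectable with this number of samples. Spearman's rho was 0.077 (permutation test, two-sided, p = 0.666, adjusted p = 0.735), and Pearson's r was 0.068 (permutation adjusted p = 0.792) with a 95% interval from -0.276 to 0.397 by Fisher's transformation. Without the tumors of patients 21 and 25, the farthest from the CXCL2 median, r was 0.032. Adjusted p-values of these relations are over a family of 127, which held this pair and the relations of CXCL2, IL8 and their ratio to each of the 42 other immune genes.

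The tumors filled all 4 combinations of high and low. Divided at the medians, 7 tumors were above both, 7 above neither, 10 above the CXCL2 median alone and 10 above the IL8 median alone. Among the 10 tumors highest in each gene, 4 were shared. The tumor of patient 22 had the highest CXCL2 (16.09) with an IL8 of 13.18, and that of patient 6 the highest IL8 (18.60) with a CXCL2 of 9.70. The tumor of patient 15 was low in both (9.40 and 10.37), and those of patients 16 and 23 were high in both, with CXCL2 at 15.41 and 15.19 and IL8 at 16.41 and 16.94.

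The batches gave different values for this pair. In the 7 tumors of the first batch rho was -0.857 (exact permutation test, two-sided, p = 0.0238, adjusted p = 0.121), and in the other 27 tumors it was 0.33 (permutation test, two-sided, p = 0.0940, adjusted p = 0.271). The difference between the batches was not tested. Mean CXCL2 was 12.29 in the first batch and 13.14 in the other tumors (permutation test, two-sided, p = 0.319). Mean IL8 was 15.62 and 13.92 (permutation test, two-sided, p = 0.0561, adjusted p = 0.0842), and the mean ratio was -3.32 and -0.78 (permutation test, two-sided, p = 0.0276, adjusted p = 0.0828 over the 3 comparisons).

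**Figure D2:**
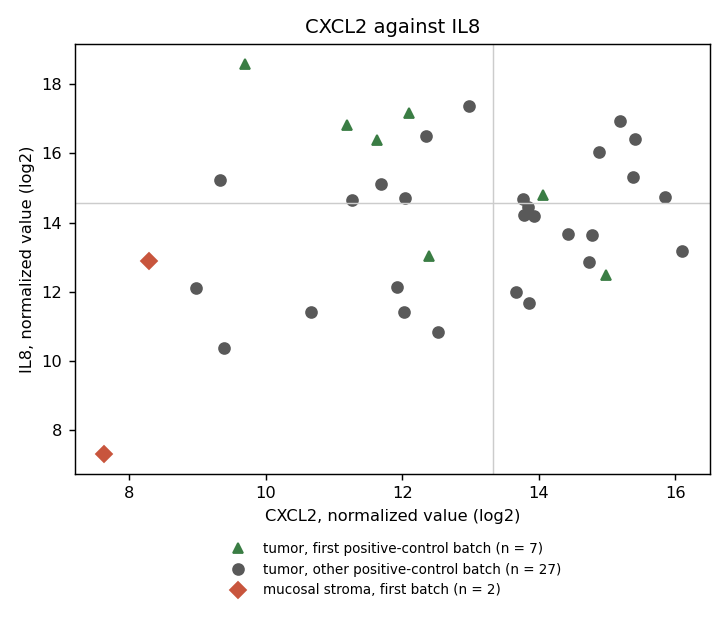
IL8 against CXCL2, both as log2 normalized values, in 7 tumors of the first positive-control batch (triangles), 27 other tumors (circles) and 2 mucosa samples (diamonds), with grey lines at the tumor medians of 13.32 and 14.56. The tumors fill all 4 quadrants, with 7, 10, 10 and 7 tumors, and the triangles fall from upper left to lower right (rho -0.857).

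The relation of each chemokine to the other immune genes asks which part of the immune profile moved with it from tumor to tumor. CXCL2 was related to 12 of 42 genes (28.6%), 11 positively (26.2%) and 1 negatively (2.38%), at a permutation adjusted p below 0.05. IL8 was related to 5 of 42 (11.9%), 3 positively (7.14%) and 2 negatively (4.76%). Of these genes 3 were shared, 9 were called for CXCL2 alone and 2 for IL8 alone. The signs of rho were opposite for 30 of the 42 genes, and the median rho over all 42 was 0.23 for CXCL2 and -0.18 for IL8. All of these relations share 1 set of libraries and 1 scaling factor per library.

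CXCL2 moved with most of the cytotoxic effector genes from tumor to tumor. GZMA, a granzyme that cytotoxic T cells and NK cells release into target cells, had a rho of 0.69 with CXCL2 (permutation adjusted p = 0.000544, r = 0.64, and r = 0.66 without the 2 farthest tumors). GZMB, the second granzyme of the panel, had a rho of 0.66 (permutation adjusted p = 0.00111, r = 0.68), and PRF1, the pore-forming protein perforin, one of 0.46 (permutation adjusted p = 0.0323). Of the 4 cytotoxic effector genes 3 were called and all 4 had a positive rho, with a median of 0.56. The remaining gene was the NK cell receptor NCR1 (rho 0.042), which was above background in 24 of 36 samples. In the tumor highest in CXCL2 the log2 level of GZMB was 11.12, near the highest of all tumors (11.24), against 8.56 in the tumor lowest in CXCL2 and a tumor median of 8.67.

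The same effector genes did not follow IL8 in this way. None of the 4 was called, at a median rho of -0.13 and with values from -0.29 for GZMA to -0.0099 for NCR1. The batches gave different values here, and the difference between them was not tested. In the first batch rho was -0.893 for GZMA and for GZMB (n = 7, exact permutation adjusted p = 0.121 for each), against -0.084 and 0.077 in the other 27 tumors. For PRF1 it was -0.46 and -0.091, and for NCR1 0.75 and -0.15. In the tumor of patient 6, the highest in IL8, GZMA was at its lowest tumor level (5.24), below that sample's background of 45.8 counts. GZMA was above background in the other samples (35 of 36). In the tumor lowest in IL8 it was at 6.58, also under the tumor median of 7.60.

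TBX, the panel's name for the transcription factor of type 1 helper and cytotoxic T cells, had a rho of 0.68 with CXCL2 (permutation adjusted p = 0.000544, r = 0.66). IFNg, the interferon those cells secrete, had a rho of 0.46 (permutation adjusted p = 0.0323), though its r of 0.39 was not called (permutation adjusted p = 0.0678). TNFSF10, the death ligand TRAIL, had a rho of 0.62 (permutation adjusted p = 0.00141, r = 0.63). The calls of PRF1 and IFNg were each kept in 29 of 34 fits with 1 tumor left out. TNFSF10 was at its lowest tumor level (9.81) in the tumor lowest in CXCL2, which also had the lowest total counts (27092). It was at 13.36 in the tumor highest in CXCL2. With the rank relation to depth removed, TNFSF10 was not called for CXCL2 (rho 0.42, permutation adjusted p = 0.0659).

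General T cell genes were less clear for CXCL2. Of the 6 genes for T cell identity and costimulation, only the costimulator ICOS was called by rho (0.44, permutation adjusted p = 0.0387). That call was kept in 19 of 34 fits with 1 tumor left out. CD3e, the chain common to T cell receptors, had a rho of 0.41 (permutation adjusted p = 0.0542) and CD8a of 0.37 (permutation adjusted p = 0.0832). By r, CD28 (0.49, permutation adjusted p = 0.0150) and CD3e (0.44, permutation adjusted p = 0.0349) were also called for CXCL2. CD3e was called in 3 of 10 alternatives other than the first batch alone. The median rho of the 6 genes was 0.39 with CXCL2 and -0.29 with IL8.

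Of the 3 genes called for both chemokines, those with the same sign for both were CD274 and PD-L1, the ligand of PD-1. These are names of 1 gene, which the panel lists under each, and the probes are not independent (rho 0.84 between them). CD274 had the closest relation of any gene to CXCL2, with a rho of 0.76 (permutation adjusted p = 0.000317, r = 0.74, and r = 0.70 without the 2 farthest tumors), and it was also related to IL8 (rho 0.45, permutation adjusted p = 0.0373, r = 0.47). PD-L1 had a rho of 0.57 with CXCL2 (permutation adjusted p = 0.00435) and of 0.46 with IL8 (permutation adjusted p = 0.0308). In the tumor highest in CXCL2, CD274 was at its highest tumor level (11.52), against 7.88 in the tumor lowest in CXCL2 and a tumor median of 9.60.

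Each chemokine was also set against these probes after removing the rank relation to the other, a step chosen after seeing the relations. The partial rho of IL8 with CD274 given CXCL2 was 0.60 (permutation adjusted p = 0.000373 over 4 relations), and that of CXCL2 given IL8 was 0.81 (permutation adjusted p = 4e-05). For the PD-L1 probe the values were 0.51 for IL8 (permutation adjusted p = 0.00221) and 0.61 for CXCL2 (permutation adjusted p = 0.000373). In the first batch alone, rho of CD274 with IL8 was -0.107 over 7 tumors, against 0.52 in the other 27. The IL8 calls also rested on single tumors, since that of CD274 was kept in 23 of 34 fits with 1 tumor left out, and that of PD-L1 was lost without patient 13, 15, 17, 18, 20 or 23. The ratio was called for neither probe (rho 0.21 and 0.066). The remaining ligand, PDCD1LG2 (PD-L2), was called for neither chemokine by rho, at 0.41 for CXCL2 (permutation adjusted p = 0.0542) and -0.30 for IL8. By r it was called for CXCL2 (0.41, permutation adjusted p = 0.0481). The inhibitory receptors PD-1, CTLA4 and LAG3 were called for neither by rho. Their rho was 0.15, 0.38 and 0.30 with CXCL2, and -0.32, -0.14 and -0.24 with IL8. By r, CTLA4 was called for CXCL2 (0.45, permutation adjusted p = 0.0286). Over the 6 inhibitory receptor and ligand genes the median rho was 0.39 with CXCL2 and -0.19 with IL8.

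IL8 was most closely related to SELP, which encodes P-selectin, the adhesion molecule with which activated platelets and vessel walls hold passing leukocytes. SELP rose with IL8 at a rho of 0.61 (permutation adjusted p = 0.00185, r = 0.59, and r = 0.61 without the 2 farthest tumors, of patients 6 and 15). Its rho with CXCL2 was -0.082 (permutation adjusted p = 0.722). Among the tumors SELP ran from 5.39 through a median of 7.82 to 9.82. It was 9.15 in the tumor highest in IL8 and 8.03 in the tumor lowest in IL8, both above the median. SELP was not called between tumors and mucosa (difference -0.91, limma adjusted p = 0.318).

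IL8 was inversely related to CD8a, the coreceptor of cytotoxic T cells (rho -0.53, permutation adjusted p = 0.0111, r = -0.52). CD8a was at 6.96 in the tumor highest in IL8, and at 7.96 in the tumor lowest in IL8, both under the tumor median of 8.99. IL8 was also inversely related to CD40, the receptor through which helper T cells activate antigen-presenting cells (rho -0.46, permutation adjusted p = 0.0308). CD40 was the one gene called for both chemokines with opposite signs, since its rho with CXCL2 was 0.51 (permutation adjusted p = 0.0117). Of the 5 interferon response and TNF superfamily genes, CD40 and TNFSF10 were called for CXCL2, and CD40 alone for IL8. MX1, TNFSF14 and CD70 were called for neither. Their rho was 0.30, -0.17 and -0.029 with CXCL2, and -0.19, 0.077 and -0.16 with IL8. Neither CD40 call was kept after rescaling to equal medians, after removing depth, after removing CD3e or in the 27 tumors outside the first batch. Within the batches the rho of IL8 with CD8a was -0.857 (n = 7) and -0.37 (n = 27), and with SELP 0.68 and 0.49. The call of IL8 with CD40 was lost when the tumor of patient 2, 4, 6, 20, 25 or 36 was left out. The calls of IL8 with SELP and CD8a were kept without any 1 of the 34 tumors. Neither was called in the 27 tumors outside the first batch (permutation adjusted p = 0.0658 and 0.196).

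**Figure D3:**
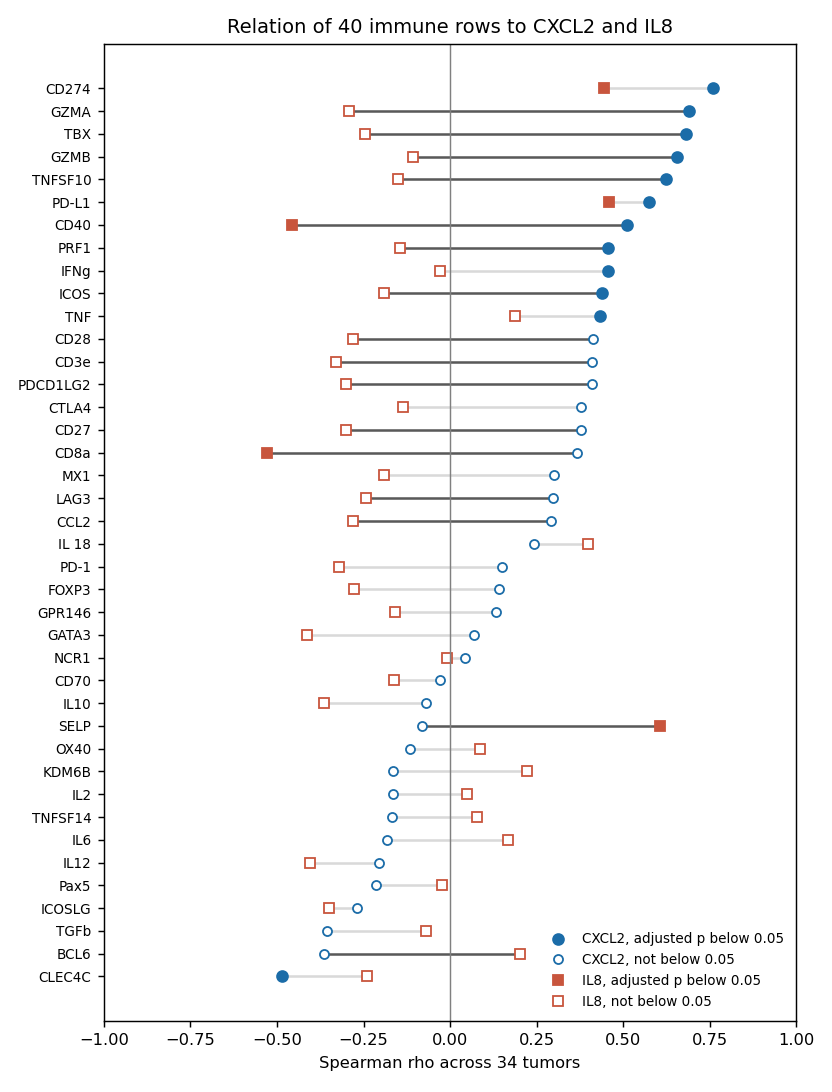
Spearman's rho over 34 tumors of 40 immune genes with CXCL2 (circles) and IL8 (squares), ordered by rho with CXCL2; filled symbols have a permutation adjusted p below 0.05, and dark lines mark genes called for the CXCL2 to IL8 ratio. The effector genes GZMA, TBX and GZMB lie far right for CXCL2 and left of 0 for IL8, CD274 and PD-L1 are filled and right of 0 for both, and SELP is filled for IL8 alone.

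Of CCL2, IL6, TNF, IL 18, IL10 and IL12, only TNF was called for CXCL2 by rho (0.43, permutation adjusted p = 0.0444, not called by r and kept in 17 of 34 fits with 1 tumor left out) and none for IL8. The closest of them to IL8 were IL12 and IL 18. IL12, a cytokine that drives type 1 helper T cells, had a rho of -0.41 with IL8 (permutation adjusted p = 0.0606) and was called by r (-0.51, permutation adjusted p = 0.0116), but its rho was -0.10 after rescaling to equal medians. IL 18, a cytokine released on inflammasome activation, had a rho of 0.40 with IL8 (permutation adjusted p = 0.0606), and was called by r (0.42, permutation adjusted p = 0.0470), after rescaling to equal medians (rho 0.50) and after removing depth (rho 0.46). CCL2, which attracts monocytes, had a rho of 0.29 with CXCL2 and -0.28 with IL8. IL6, often made together with IL8, had a rho of 0.17 with IL8 and -0.18 with CXCL2. The mucosa of patient 9, with the higher IL8 of the mucosa pair, also had an IL6 level of 14.07 and a CCL2 level of 15.06, both above the highest tumor (12.27 and 14.24). In the mucosa of patient 8, IL6 was at 5.48 and CCL2 at 11.06.

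Of the 4 B cell and dendritic cell genes, CLEC4C, a receptor of plasmacytoid dendritic cells, was the single gene inversely related to CXCL2 (rho -0.48, permutation adjusted p = 0.0218). Its r of -0.36 was not called (permutation adjusted p = 0.0856). The call by rho was also lost after removing depth and in the 27 tumors outside the first batch. All 4 had a negative rho with CXCL2, at a median of -0.32. For IL8 none was called, and the median was -0.13.

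**Figure D4:**
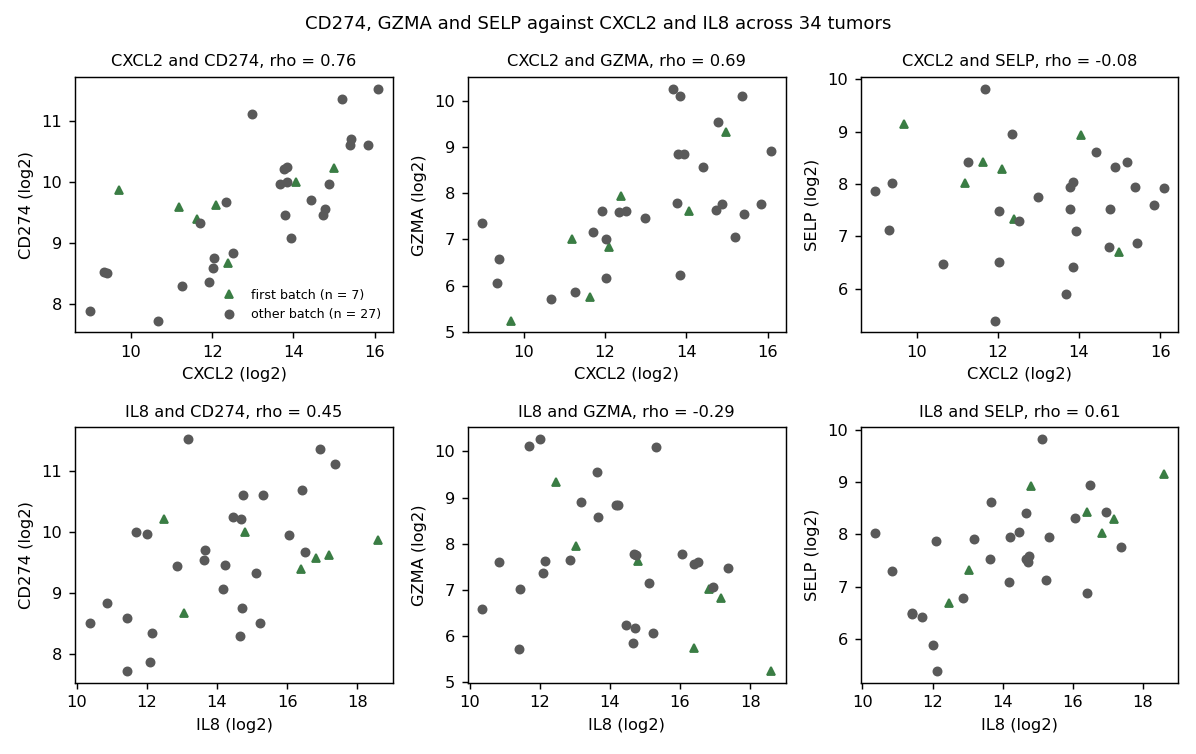
Log2 normalized values of CD274, GZMA and SELP against CXCL2 (upper panels) and IL8 (lower panels) in 34 tumors, with triangles for the 7 tumors of the first batch and circles for the other 27. CD274 rises with both chemokines (rho 0.76 and 0.45), GZMA with CXCL2 (0.69 against -0.29), and SELP with IL8 (0.61 against -0.08).

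The ratio gave a direct test of whether a gene moved differently with the chemokines. It was related to 17 of 42 genes (40.5%), 15 positively (35.7%) and 2 negatively (4.76%). All 17 had opposite signs of rho for CXCL2 and IL8, as did 30 of the 42 genes. Because the ratio is CXCL2 minus IL8, its calls favor genes with opposite signs, so this count is not separate evidence. CD40 was the closest (rho 0.77, permutation adjusted p = 0.000317, r = 0.76), followed by GZMA (0.73, permutation adjusted p = 0.000317, r = 0.69), TBX (0.70, permutation adjusted p = 0.000317, r = 0.70) and CD8a (0.70, permutation adjusted p = 0.000544, r = 0.65). The CD40 call depended on the scaling, since after rescaling to equal medians its rho with the ratio was 0.37 (permutation adjusted p = 0.0846), while GZMA, TBX and CD8a were still called. Under that scaling 16 genes were called, 8 of them among these 17. Tumors richer in CXCL2 than in IL8, relative to the others, had more GZMA, TBX and CD8a, and under the main scaling more CD40. CD40 was at its lowest tumor level (7.67) in the tumor of patient 6, which had the lowest ratio, and at 10.19 in that of patient 22, which had the highest.

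General T cell genes, mostly not called by rho for either chemokine alone, were called for the ratio. Of the 6 T cell identity and costimulation genes 5 were called, at a median rho of 0.56 against 0.31 over all 42 genes. CD3e had a rho of 0.59 (permutation adjusted p = 0.00360), CD28 of 0.56 and CD27 of 0.55, and the exception was OX40. With the rank relation to depth removed, CD8a was the only one of these still called (rho 0.59), while CD3e had a rho of 0.42 (permutation adjusted p = 0.0659) and ICOS, CD28 and CD27 also lost their calls. PDCD1LG2 had a rho of 0.57 and CCL2 of 0.44 (permutation adjusted p = 0.0400). The CCL2 call was kept in 19 of 34 fits with 1 tumor left out and in 4 of 10 alternatives other than the first batch alone, and its rho was 0.13 after rescaling to equal medians. On the IL8 side were SELP (rho -0.54, permutation adjusted p = 0.00910, and -0.44 with an adjusted p of 0.0636 after removing depth) and BCL6, a transcription factor of follicular helper T cells and germinal center B cells (rho -0.47, permutation adjusted p = 0.0265). All 17 genes kept the same sign in both batches, which is not an independent check because they were called on these same tumors. In the 27 tumors outside the first batch 7 of them were called, and in the first batch alone 0.

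**Figure D5:**
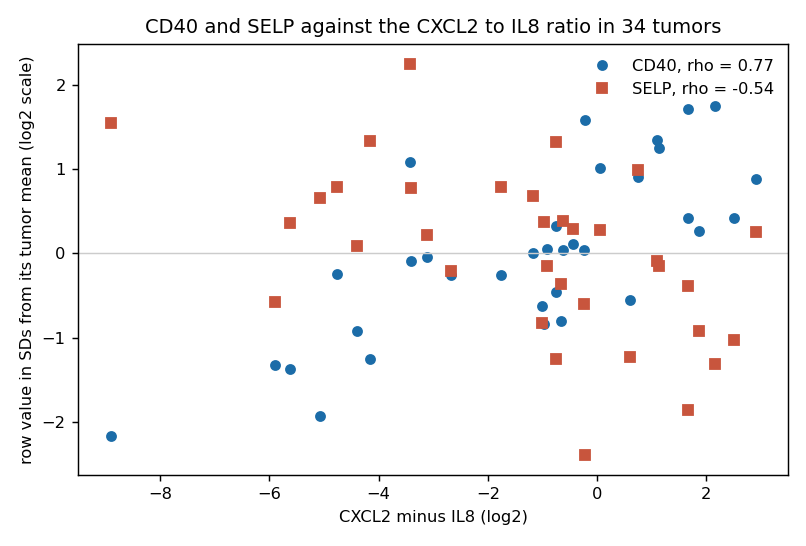
CD40 (circles) and SELP (squares) of 34 tumors, in SDs from the tumor mean of each gene on the log2 scale, against the CXCL2 to IL8 ratio (log2 of CXCL2 minus log2 of IL8). CD40 rises with the ratio (rho 0.77, and 0.37 and not called after rescaling to equal medians) while SELP falls (rho -0.54), and the tumor of patient 6 lies alone at a ratio of -8.91.

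Technical measures moved with the chemokines too. Library depth, taken from the scaling factor of each sample, had a rho of 0.56 with CXCL2 (permutation adjusted p = 0.00432 over 18 relations, r = 0.48), of -0.27 with IL8 (permutation adjusted p = 0.186) and of 0.63 with the ratio (permutation adjusted p = 0.00099, r = 0.42). The housekeeping gene ALAS1 had a rho of 0.50 with CXCL2 (permutation adjusted p = 0.0124), and the housekeeping gene GUSB one of -0.71 with IL8 (permutation adjusted p = 0.00018, r = -0.71). All 4 housekeeping genes enter the scaling, and scaling without ALAS1 was not tested. With the rank relation to depth removed, CXCL2 was still related to CD274, GZMA, GZMB, TBX, PD-L1 and IFNg, which were 6 of its 12 genes, and 6 of the 17 genes of the ratio were still called, among them CD40, CD8a, GZMA, GZMB and TBX. The rho of CXCL2 with IL8 after removing depth was 0.29 (permutation adjusted p = 0.259). With GUSB left out of the scaling, IL8 kept its relations to SELP, CD8a and CD40 but not those to CD274 (rho 0.36) and PD-L1 (rho 0.35). With the rank relation to CD3e removed, 7 of the 12 CXCL2 genes and 4 of the 5 IL8 genes were still called.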

How the data were processed

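RNA of 34 tumors and 2 mucosal stroma samples was measured by the authors on a NanoString nCounter panel of 44 immune genes and 4 housekeeping genes and analysed in nSolver (version not given in the sources used here). The deposited values, here treated as a signal, were counts multiplied by 1 factor per sample that made the geometric mean of the housekeeping genes equal. Counts were recovered from the step of each sample, and 1726 of 1728 values (99.9%) were whole within 0.01. Intervals on shares cover counting error only. The labels do not tie samples to dogs, so p-values measure the spread between samples, some of which shared a dog.

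The log2 values were tested with limma 3.58.1 (R 4.3.3), adjusted by Benjamini-Hochberg across all 44 immune genes at a threshold of 0.05. Spearman and Pearson correlations used 100000 permutations with scipy 1.17.1 and numpy 2.4.6 (exact for 7 tumors). Both scripts were tested on simulated data. Batches were set at a positive-control ratio of 2 (1.54 to 1.77 against 2.59 to 2.85). Named genes were the 5 closest to each chemokine, the 4 closest to the ratio, and members of the lists of the panel. Also named were CD3e, CCL2, IL6, TNF and SELP, plus IFNg, named after its values were seen. The genes and lists were chosen with earlier results of these data known. Results of 2 immune genes are counted but not reported here by name. IL8 was matched to CXCL8 in RefSeq, and CXCL2 to no entry. Alternatives covered scaling, pseudocount, background, filter, batch, depth, test and samples left out.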

Additional observations from a re-analysis of the deposited data

How the results depend on the processing

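The CXCL2 difference between tumors and mucosa kept its direction in all settings run, from 4.66 to 5.33 with 1 mucosa sample left out, and fell short of the threshold without that of patient 8. The IL8 difference was 4.17 by the unequal-variance test (adjusted p = 0.542) and 2.96 after rescaling to equal medians, neither called, and ran from 1.37 to 6.97 with 1 mucosa sample left out. The 15 immune genes called became 4 to 7 with 1 mucosa sample left out and 7 with the batch as a term. The ratio difference of 0.83 ran from -1.64 to 3.29 with 1 mucosa sample left out and was -1.19 in the first batch alone. Taking the batch as a term used the same first-batch samples for the ratio and is not a separate check.

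Among tumors of the first batch alone, CXCL2 with IL8 had a rho of -0.857, and 0 genes were called for CXCL2, IL8 or the ratio by the permutation test (10, 11 and 13 at an unadjusted p below 0.05). Outside it 6, 2 and 7 genes were called. Residuals after depth left 6 for CXCL2 and 7 for the ratio. IL8 had 10 genes after rescaling to equal medians and 8 by Pearson's r. That rescaling kept 6 of the 12 CXCL2 genes, 4 of the 5 IL8 genes and 8 of the 17 of the ratio. With each tumor left out in turn, CXCL2 had 8 genes (without patient 17) to 18 (without patient 16), IL8 2 (without patient 20) to 8 (without patient 28), and the ratio 15 to 20. Depth residuals, scaling without GUSB, 3 batches and leaving out each tumor were chosen after seeing the data.

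Signs turned for some weak relations. In the first batch rho was 0.36 for CXCL2 with IL6, -0.29 for CXCL2 with TNF, -0.107 for IL8 with CD274, -0.143 for IL8 with IL6, 0.32 for the ratio with IL6 and -0.25 for the ratio with TNF. After depth it was 0.086 for CXCL2 with IL6 and 0.145 for CXCL2 with SELP, which was 0.078 outside the first batch. After rescaling to equal medians it was -0.19 for the ratio with TNF. The causes were not tested.

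CXCL2 with CD274, GZMA, TBX and GZMB was called in 11 of 11 settings other than the first batch alone. IL8 with SELP and with CD8a was called in 10 of 11, the exception being the tumors outside the first batch. IL8 with CD40 was called in 7 of 11. The count test on recovered counts was not run. No paired analysis was possible because the labels give tumors and mucosa separate patient numbers. The 2 mucosa samples limit every comparison between the tissues.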
